A study of Mus musculus with 8 samples.

Results

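The genes described here encode protogenin, neogenin and their relatives among the DCC-type receptors, the UNC5 receptors, and the netrin and repulsive guidance molecule (RGM) ligands that bind them. The 10 members are Prtg, Neo1, Igdcc3, Igdcc4, Dcc, Unc5b, Unc5c, Ntn1, Rgma and Rgmb, and their rows were taken by gene symbol from the 55487 genes of a count table. RNA came from mouse embryonic stem cells on day 6 of a serum-free differentiation towards precardiac mesoderm. The 4 parental libraries came from E14-Tg2a cells with unaltered Tbx1, and the 4 mutant libraries from line 4D, a derivative of E14-Tg2a labelled Tbx1-/-. Both lines received the same differentiation treatment and nothing else. Since line 4D is the sole source of mutant RNA, what the loss of Tbx1 does and what is peculiar to this line cannot be told apart. The family was put together with results of this comparison already known, so the values of its members describe the fit across all genes and are no independent evidence.

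DCC-type receptors are membrane proteins with immunoglobulin and fibronectin type III domains outside the cell. Netrins attract or repel growing axons and migrating cells through DCC and neogenin, and UNC5 receptors mediate repulsion. Both DCC and UNC5 proteins are called dependence receptors, because they can trigger cell death when no ligand is bound. RGM proteins are anchored to the membrane by lipid, bind neogenin, and act as co-receptors for bone morphogenetic proteins (BMPs). Protogenin is a DCC-type receptor of the early embryo, known from the neural tube and the posterior and paraxial mesoderm.

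Depth was 3803561 to 6293907 counts per library. The means of the lines differed by -696331 counts, mutant minus parental, which did not exceed the spread between libraries (p = 0.257 by a two-sided exact permutation test with n = 4 in each line, where 0.0286 is the smallest p possible). Mutant library 4 stood apart: 14850 genes were detected in it, and 18213 to 19134 in each of the other 7 libraries. The targeted gene, Tbx1, had 22 to 65 counts in parental and 0 to 3 counts in mutant libraries. Of 14 markers of cardiac mesoderm all were measurable, with Hand1 at 568 to 638 and Hand2 at 330 to 371 CPM (counts scaled to a common library size) in parental libraries, whereas the early mesoderm gene Mesp1 had at most 2.74 CPM there. The neural marker Olig2 and the paraxial marker Msgn1 had 0 counts in every library.

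In parental cells the family spanned about 3 orders of magnitude, and the DCC-type receptors held both ends of the range. Levels are CPM on the scale of the trimmed mean of M values (TMM). QuantSeq reads the 3′ end of each transcript, so that CPM can be compared between genes without a correction for length, although a gene whose 3′ end is poorly annotated would be undercounted. Igdcc3 had the highest parental mean at 760 ± 137 CPM (SD, n = 4) and Prtg was next at 742 ± 72.1 CPM. These did not differ beyond their spread. Unc5b followed at 246 ± 21.5 CPM, below every Prtg value. Unc5c at 116 ± 16.3 CPM and Neo1 at 109 ± 9.06 CPM overlapped, as did Rgma at 30.6 ± 7.49 CPM and Igdcc4 at 26.3 ± 3.24 CPM. Rgmb at 9.89 ± 2.11 CPM overlapped with Ntn1 at 5.27 ± 2.83 CPM, and Dcc was lowest at 0.763 ± 0.884 CPM. In the mutant line the order of the means at the top was the same, but the overlaps changed. Igdcc3 stood alone at 703 ± 63.4 CPM, and Prtg at 334 ± 79.5 CPM overlapped with Unc5b at 278 ± 39.6 CPM. Lower down, the mutant mean of Igdcc4 (37.4 ± 5.43 CPM) lay above that of Rgma (22.6 ± 13.2 CPM), again with overlap.

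**Figure D1:**
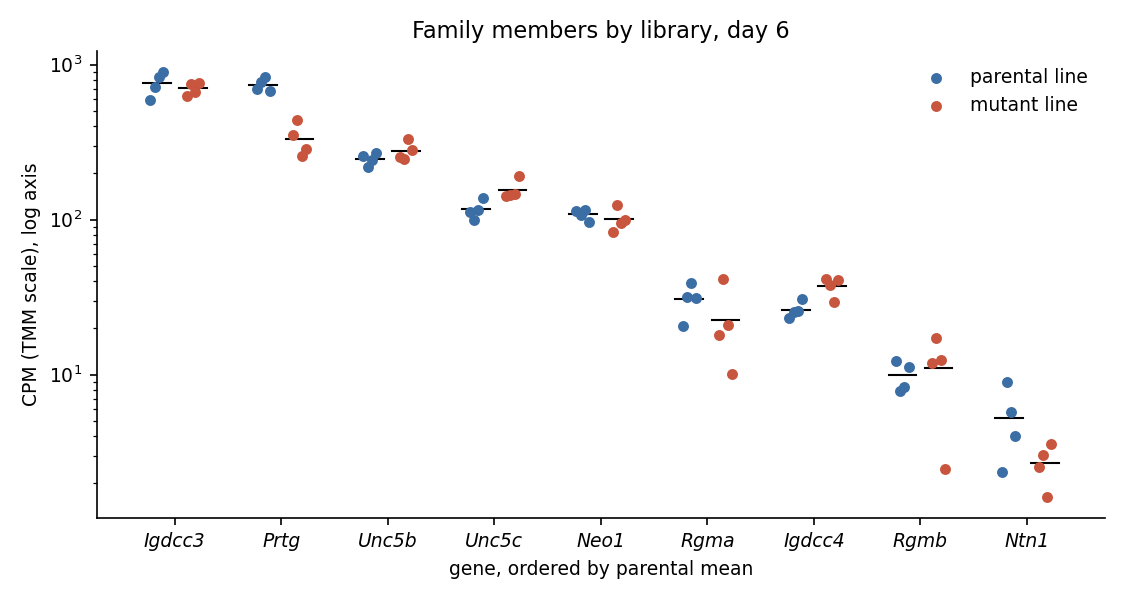
Level of each of the 9 members that passed the filter on low counts, in CPM on a log axis, with 1 point per library (blue parental, red mutant) and a line at the mean of 4 libraries. Prtg is the member whose mutant points, 258 to 437 CPM, lie far below the parental ones, 674 to 831 CPM, while Dcc, not drawn, had 0 counts in some libraries.

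Prtg RNA was lower in the mutant line by a factor of 2.22. Its levels were 694, 771, 831 and 674 CPM in parental libraries 1 to 4, and 354, 437, 258 and 287 CPM in mutant libraries 1 to 4. Every mutant library lay below every parental library, with mutant library 2 the highest of its group. Behind these values stood 3201 to 5206 counts per parental and 1043 to 2105 counts per mutant library. The log2 fold change, mutant minus parental, was -1.15 ± 0.14 (SE). In the edgeR quasi-likelihood test over all 13280 genes tested its Benjamini-Hochberg adjusted p was 0.000108. Without mutant library 4 the log2 fold change was -1.09. Prtg (ENSMUSG00000036030.9) lies on chromosome 9 from 72806874 to 72917291 on the plus strand (GRCm38). Of the 9 members tested, Prtg was the 1 with an adjusted p under 0.05, where 1.42% of all tested genes were called and 0.67% were called lower. Together with Unc5c it was also 1 of 2 members whose lines did not overlap, against 7.52% of all tested genes. Since the family was chosen with this contrast in view, nothing is read from these counts. In bulk RNA, fewer cells that express a gene and less RNA per cell cannot be told apart.

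Markers of other cells in the culture are given beside the Prtg difference. Of 14 markers of paraxial and posterior mesoderm 10 were tested, and 1, Cdx2, was called by edgeR, DESeq2 and limma-voom (3 had an unadjusted p under 0.05 in edgeR), where 1.42% of all tested genes were called in edgeR. Of all 13280 tested genes, 1584 had an unadjusted p under 0.05 in edgeR. The log2 fold changes of these 10 markers were negative, with a median of -0.87 against 0.001 over all tested genes. Their summed level was 155 to 237 CPM in parental and 83.7 to 198 CPM in mutant libraries. Most of the sum was Cdx2, a homeobox factor of the posterior embryo, which fell from 133 ± 35.6 to 73.7 ± 17.6 CPM (SD, n = 4; log2 fold change -0.85 ± 0.19 SE, edgeR adjusted p = 0.0236). Its adjusted p was 0.0979, 0.0967, 0.0844 and 0.0813 without parental library 2, parental library 4, mutant library 1 and mutant library 3, respectively, with a log2 fold change of -1.04 to -0.67 over all libraries left out in turn. T (brachyury), a defining gene of the primitive streak, was at 10.7 to 27.6 CPM in parental and 2.75 to 15.0 CPM in mutant libraries, and the difference did not pass (log2 fold change -1.21, edgeR adjusted p = 0.241), although without mutant library 2 it did (-1.82, adjusted p = 0.0417). Without Cdx2 the sum was 51.3 to 101 CPM in parental and 98.5 CPM in mutant library 2, with the other mutant libraries at 16.3 to 26.2 CPM, so that mutant library 2 lay inside the parental range. Mutant library 2 was the highest of its group in these markers and in Prtg, an observation on 1 library. All neural markers summed to 294 to 350 CPM in parental and 275 to 390 CPM in mutant libraries. Without the broadly expressed Ncam1, which made up most of this sum, they summed to 59.2 to 79.8 CPM in parental and 39.8 to 73.4 CPM in mutant libraries. The lines overlapped in both sums. Of the 8 tested neural markers 0 were called by edgeR, DESeq2 or limma-voom (1 with an unadjusted p under 0.05 in each). Of the 14 markers of cardiac mesoderm, all tested, 10 had negative log2 fold changes (median -0.65), and 9 had an unadjusted p under 0.05 in edgeR. Their summed level was 1593 to 3281 CPM in parental and 1577 to 1869 CPM in mutant libraries. The 1 marker called by edgeR was Gata6, a zinc-finger factor of heart and endoderm, which rose from 110 to 156 CPM in parental to 200.2 to 239.9 CPM in mutant libraries (log2 fold change 0.72 ± 0.13 SE, edgeR adjusted p = 0.00516). Hand1 had 379 to 548 CPM and Hand2 428 to 512 CPM in mutant libraries, neither overlapping with the parental values given above. Their log2 fold changes were -0.39 ± 0.12 for Hand1 and 0.40 ± 0.10 for Hand2 (SE). Neither passed in edgeR (adjusted p = 0.115 and 0.0513), and DESeq2 and limma-voom called both. Isl1, at 69.7 to 76.8 CPM in parental and 34.1 to 64.9 CPM in mutant libraries, was likewise called by DESeq2 and limma-voom alone. Its log2 fold change was -0.67 ± 0.19 (SE; edgeR adjusted p = 0.108). The part of these cells in the Prtg difference was not tested.

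Igdcc3, also called Punc and known from the early nervous system, overlapped between the lines. Its levels were 589, 717, 837 and 898 CPM in parental and 632, 746, 667 and 766 CPM in mutant libraries, and all mutant values lay inside the parental range. The log2 fold change was -0.11 ± 0.12 (SE; edgeR adjusted p = 0.773). The ratio of Prtg to Igdcc3 RNA was 0.751 to 1.18 in parental and 0.375 to 0.586 in mutant libraries, without overlap. The share of Prtg in the summed CPM of the 5 DCC-type receptors was 45.5 ± 4.05% in parental and 28.2 ± 4.55% in mutant libraries (SD, n = 4). Igdcc3 (ENSMUSG00000032394.6) lies on chromosome 9 from 65141189 to 65185872 on the plus strand.

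**Figure D2:**
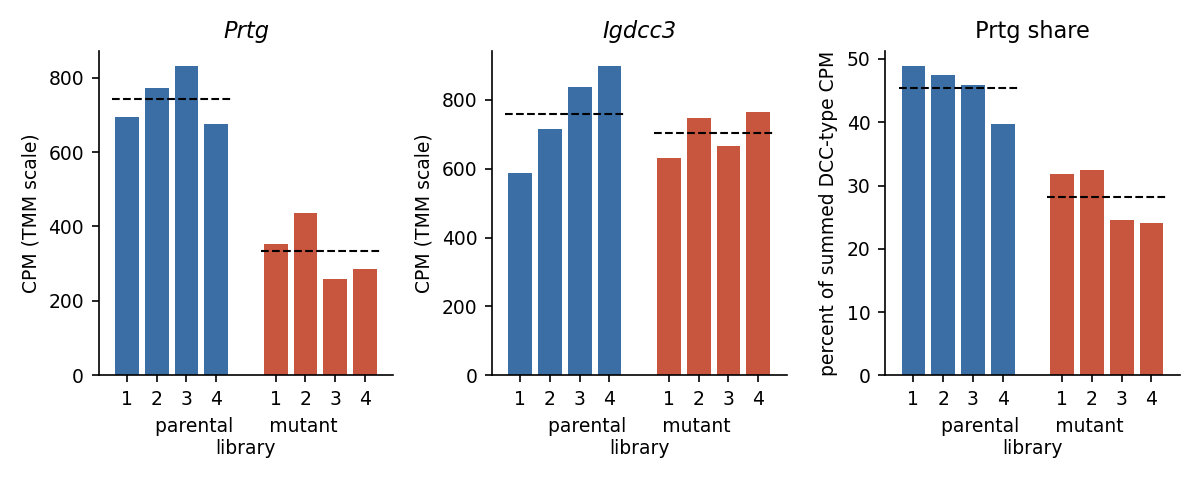
Bars give Prtg (left) and Igdcc3 (middle) in CPM, and the share of Prtg in the summed CPM of Prtg, Igdcc3, Igdcc4, Neo1 and Dcc in percent (right), for parental (blue) and mutant (red) libraries 1 to 4, with dashed lines at the means. Prtg and its share were lower in all 4 mutant libraries than in any parental library, and Igdcc3 overlapped between the lines.

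Among the other DCC-type receptors the lines overlapped. Igdcc4, named Nope as a neighbour of Punc, had 23.1, 25.3, 25.9 and 30.8 CPM in parental and 41.5, 37.9, 29.6 and 40.7 CPM in mutant libraries. Mutant library 3 alone lay within the parental range, and the log2 fold change of 0.51 ± 0.20 (SE) did not pass (edgeR adjusted p = 0.285). Neo1, the neogenin gene and receptor of netrins and RGMs, had 114, 108, 116 and 96.1 CPM in parental and 82.8, 124, 95.0 and 99.8 CPM in mutant libraries. Its groups overlapped, with a log2 fold change of -0.11 ± 0.14 (SE; edgeR adjusted p = 0.812). Dcc, the founding netrin receptor, on chromosome 18, was near the detection limit. Its counts were 0, 9, 9 and 0 in parental and 5, 4, 20 and 0 in mutant libraries, which was under the filter on low counts, so that a difference was not detectable at this depth.

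All 4 measurable DCC-type receptor genes lie on chromosome 9. Neo1 (ENSMUSG00000032340.8) runs from 58874687 to 59036441 on the minus strand, and Igdcc4 (ENSMUSG00000032816.15) from 65101486 to 65137940 on the plus strand. Igdcc4 and Igdcc3 are adjacent on the same strand, 3.25 kb apart, yet the parental mean was 26.3 CPM for Igdcc4 and 760 CPM for Igdcc3. Prtg starts 7621 kb beyond the end of Igdcc3. Of 28 other tested genes that start within 1000 kb of the Prtg start, a window chosen after the data were seen, 0 were called by edgeR, DESeq2 or limma-voom (1 with an unadjusted p under 0.05 in each). With 1.42% of all tested genes called by edgeR, nothing is read from a count of 0 in 28. The log2 fold changes of these neighbours ranged from -0.46 to 0.90 with a median of 0.01. Many had few counts, and the SE reached 0.81. The ubiquitin ligase gene Nedd4, named after its values were seen as the most abundant neighbour, was at 0.06 ± 0.09 (SE). The pseudogene Gm27203, on the opposite strand within Prtg, had 293 counts over the 8 libraries, and the unconfirmed transcript A730062M13Rik on the same strand had 1120.

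**Figure D3:**
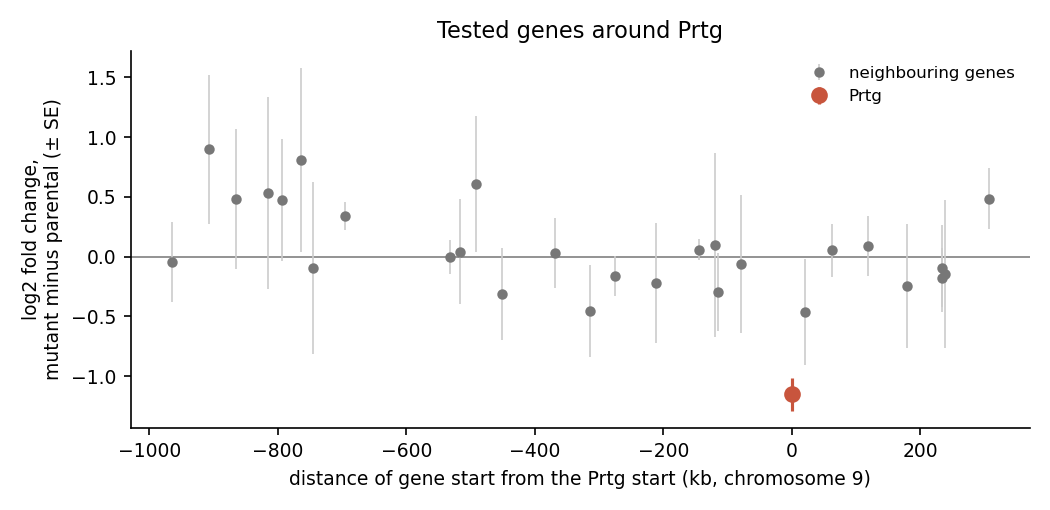
Log2 fold change, mutant minus parental, with SE, of the 28 tested genes that start within 1000 kb of the Prtg start (grey), against the distance of their start in kb, and of Prtg itself (red). Prtg at -1.15 lies below all of its tested neighbours, which range from -0.46 to 0.90.

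Prtg, Igdcc3, Igdcc4 and Ntn1 share a sequence feature that played no part in choosing the family. The let-7 microRNAs, which are known to mark the end of early developmental programmes and to repress transcripts with a match to their seed, were not measured here. The mature let-7a sequence of RefSeq (GRCm38.p6) is shown first, with its seed, bases 2 to 8, in capitals, because the sites beneath it are defined by that seed. Of 11 mature let-7 and miR-98 sequences in the table, 10 carry this seed. The 3′ UTRs of GENCODE M21 were searched for its complement, CTACCTC, on the transcript strand, using the longest annotated 3′ UTR per gene. In the sites the match is in capitals.
mmu-let-7a-5p: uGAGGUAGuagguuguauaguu
Prtg, base 271 of the 3′ UTR: ccctctgctgaatagCTACCTCa
Prtg, base 1701: gcgctcctgtttataCTACCTCc
Igdcc3, base 388: tgtgactctcagcacCTACCTCa
Igdcc3, base 468: agcccgaaagcactcCTACCTCa
Igdcc4, base 808: ttcctaacaacatgaCTACCTCa
Ntn1, base 242: gaggacaagacatagCTACCTCa

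Prtg held 2 matches in 4989 bases of 3′ UTR and Igdcc3 held 2 in 538 bases. Igdcc4 and Ntn1 held 1 each, in 2412 and 3642 bases, and the other 6 members held 0. Of 11641 tested genes with a 3′ UTR, 12.3% held a match and 1.74% held at least 2. Length matters for such counts: among genes with a 3′ UTR at least as long as that of Prtg, 37.2% held a match and 10.0% held at least 2, and among those at least as long as that of Igdcc3, 14.7% and 2.16%. A match describes the sequence and is not a measured site.

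Promoters were searched for the T-box core motif GGTGTGA on both strands, because the mutated gene encodes a T-box factor. RefSeq promoters of 300 bases (GRCm38.p6) matched 7 members by symbol, in 9 entries. The motif was found in 0 of the 9 entries and in 3.98% of all 32851 promoters of that length. At that share nothing is read from a count of 0 in 9, and the entries of Rgmb partly overlap. The Prtg promoter held 35 CG dinucleotides and that of Igdcc3 38, against a median of 7 over all promoters. That median was taken without regard to whether the genes were tested here, whereas all members searched were tested. The other members searched were also above this median: Neo1 held 54, Igdcc4 49, Unc5b 36 and Unc5c 24, and the Rgmb entries 18, 30 and 24.

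Neither UNC5 receptor was called, although the lines did not overlap for Unc5c. Unc5c had 112, 99.4, 116 and 139 CPM in parental and 142, 145, 147 and 191 CPM in mutant libraries. Every mutant library lay above every parental library, and mutant library 4 was well above the others. The log2 fold change was 0.42 ± 0.14 (SE), and the edgeR adjusted p was 0.163. Unc5b, a receptor known for netrin responses in blood vessels, had 256, 217, 242 and 267 CPM in parental and 253, 246, 333 and 280 CPM in mutant libraries. Its groups overlapped, with a log2 fold change of 0.18 ± 0.12 (SE; edgeR adjusted p = 0.601). Unc5c (ENSMUSG00000059921.15) lies on chromosome 3 from 141465216 to 141834924 on the plus strand, and Unc5b (ENSMUSG00000020099.8) on chromosome 10 from 60762593 to 60831581 on the minus strand.

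The ligands were expressed at low levels, and the lines overlapped for each of them. Ntn1, the gene of the secreted netrin-1, had 13, 50, 36 and 19 counts in parental and 15, 14, 9 and 13 in mutant libraries, or 2.36 to 8.97 and 1.63 to 3.57 CPM. Its log2 fold change of -0.97 ± 0.63 (SE; edgeR adjusted p = 0.591) rests on few counts, and was -0.60 without parental library 2. Rgma had 20.7, 31.6, 38.9 and 31.2 CPM in parental and 17.97, 41.2, 20.9 and 10.2 CPM in mutant libraries. Mutant library 2 was the highest of all 8 libraries and mutant library 4 the lowest, and the log2 fold change was -0.44 ± 0.32 (SE; edgeR adjusted p = 0.655). It was -0.90 without mutant library 2 and -0.21 without mutant library 4, and passed in neither case. Rgmb had 12.2, 7.89, 8.30 and 11.2 CPM in parental and 11.9, 17.2, 12.4 and 2.47 CPM in mutant libraries, with a log2 fold change of 0.17 ± 0.44 (SE; edgeR adjusted p = 0.933). Its sign turned to -0.13 without mutant library 2. Ntn1 (ENSMUSG00000020902.12) lies on chromosome 11 from 68209364 to 68400823 (minus strand), Rgma (ENSMUSG00000070509.15) on chromosome 7 from 73375509 to 73419899 (plus strand), and Rgmb (ENSMUSG00000048027.9) on chromosome 17 from 15803188 to 15831039 (minus strand).

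Further netrins, UNC5 receptors and related molecules had low counts. Of 12 relatives 5 passed the filter on low counts, and 0 were called by edgeR, DESeq2 or limma-voom (1 with an unadjusted p under 0.05 in each). Ntn3, a further secreted netrin, had 11.6, 13.6, 12.3 and 6.32 CPM in parental and 32.8, 15.7, 20.9 and 19.5 CPM in mutant libraries. The lines did not overlap, and the log2 fold change was 1.02 ± 0.31 (SE; edgeR adjusted p = 0.129). Ntng1, a netrin-like membrane-anchored ligand, was at 8.22 to 15.3 CPM in parental and 3.02 to 14.3 CPM in mutant libraries (edgeR adjusted p = 0.818). Other relatives such as Unc5a and Ntn5 had too few counts for a test.

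Among genes that act with or downstream of the receptors, 0 of those for cytoplasmic signalling and processing were called by edgeR. Of 27 binding partners and cytoplasmic signalling genes 25 were tested, with a median log2 fold change of -0.002 and 5 with an unadjusted p under 0.05 in edgeR. DESeq2 called 1 of them, the kinase gene Fyn, and limma-voom 0; Fyn had 51.0 to 68.2 CPM in parental and 74.1 to 102 CPM in mutant libraries (edgeR adjusted p = 0.0679). The abundant Map1b, which links netrin signals to microtubules, had 672 to 825 CPM in parental and 509 to 748 CPM in mutant libraries. Of 14 genes for receptor processing and turnover 12 were tested, and 0 were called by edgeR, DESeq2 or limma-voom (1 with an unadjusted p under 0.05 in each). Mbtps1, a protease known to cleave RGMa, had 197 to 224 CPM in parental and 188 to 231 CPM in mutant libraries, and Adam10, a sheddase, 60.6 to 80.6 and 69.7 to 96.8 CPM. The edgeR adjusted p was 0.381 for Adam10, 0.560 for Map1b and 0.957 for Mbtps1.

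Of 23 genes of RGM-linked BMP signalling 21 were tested, with 10 of the 21 genes positive and 11 negative (median log2 fold change -0.01). Bmp4 and Id2 were called lower, and 9 of the 21 had an unadjusted p under 0.05 in edgeR. Among those 9, Bmpr1b, Bmpr2 and Acvr1 rose, with log2 fold changes of 1.98, 0.38 and 0.62. Bmp7 and Id3 were lower, at -0.75 and -0.29, as were Bmp4, Id2, Id1 and Acvr2b, described next. Bmpr1b, Bmpr2, Acvr1, Bmp7 and Id3 were not called by edgeR, DESeq2 or limma-voom, and Bmpr1b had at most 44 counts per library. Bmp4, a BMP ligand to which RGM proteins can bind, had 329, 413, 354 and 272 CPM in parental and 165, 170, 63.0 and 112 CPM in mutant libraries, without overlap. Its log2 fold change was -1.42 ± 0.22 (SE; edgeR adjusted p = 0.00165). Id2, a target gene of BMP signalling, had 572, 633, 573 and 623 CPM in parental and 305, 474, 436 and 370 CPM in mutant libraries, also without overlap. Its log2 fold change was -0.60 ± 0.12 (SE; edgeR adjusted p = 0.0124), and the adjusted p rose to 0.0692 without parental library 2. The related target Id1 had 230 to 264 CPM in parental and 101 to 210 CPM in mutant libraries, and its difference did not pass (edgeR adjusted p = 0.137), although it reached 0.0497 with the replicate number as a block. The type 2 receptor gene Acvr2b had 218 to 252 CPM in parental and 163 to 207 CPM in mutant libraries, with a log2 fold change of -0.43 ± 0.11 (SE). It did not pass in edgeR (adjusted p = 0.0700), whereas DESeq2 (adjusted p = 0.0114) and limma-voom (adjusted p = 0.0357) called it. In the 4 lists of relatives and pathway genes together, edgeR called 2 of 63 tested genes, both lower, where 1.42% of all tested genes were called and 0.67% called lower. DESeq2 called 4 of the 63 and limma-voom 3, against 405 and 252 of all 13280 tested genes, respectively.

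**Figure D4:**
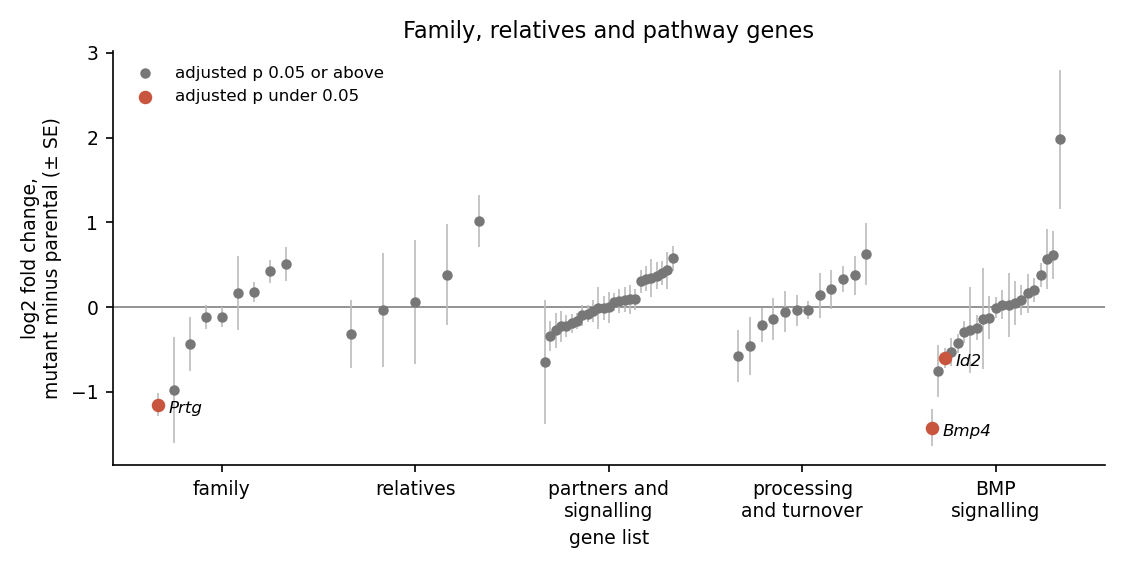
Log2 fold change, mutant minus parental, with SE, of the tested genes of the family and of the 4 lists around it, ordered by value within each list, with genes at an adjusted p under 0.05 in red. Prtg at -1.15, Bmp4 at -1.42 and Id2 at -0.60 are the 3 genes past the threshold, and the remaining members lie on both sides of 0.

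The genes whose levels were most like those of Prtg over the 8 libraries were Txndc15, Amotl2, Nop58, Rdx and Nap1l1, out of 9025 other genes with a mean of at least 10 CPM. Their Pearson correlations with Prtg on the log2 CPM scale were 0.981, 0.972, 0.972, 0.971 and 0.970 (n = 8 libraries), a description that includes the difference between the lines. Taken as deviations from the mean of each line, which removes that difference, the correlations were 0.857, 0.960, 0.899, 0.838 and 0.830. The genes were picked by correlation over the same libraries, deviations included, so nothing is read from the size of these values. Rdx, the radixin gene for a linker of membrane and actin, had 763 to 839 CPM in parental and 525 to 655 CPM in mutant libraries. Its log2 fold change was -0.45 ± 0.10 (SE), far smaller than that of Prtg. The 5 genes had log2 fold changes of -0.43 to -0.58. Txndc15 and Amotl2 were not called by edgeR (adjusted p = 0.301 and 0.178), while Nop58, Rdx and Nap1l1 were. Those calls were lost in 7, 6 and 4 of the 15 alternative settings, respectively. Among the pathway genes, Bmp4 had a correlation of 0.963 with Prtg over the 8 libraries and 0.863 as deviations from the line means, whereas for Id2 the values were 0.826 and 0.09. Tbx1 had 0.910 over the 8 libraries and 0.03 as deviations, and the marker Cdx2 had 0.814 and 0.254. Within the family, Unc5c, Unc5b and Igdcc4 had negative correlations with Prtg over the 8 libraries, at -0.816, -0.732 and -0.710. As deviations these were -0.412, -0.839 and 0.313. Positive in both were Ntn1 at 0.680 and 0.431, Rgma at 0.651 and 0.695, and Neo1 at 0.502 and 0.536. So were Igdcc3 at 0.288 and 0.127 and Rgmb at 0.195 and 0.371. The 8 libraries are 4 of each line and are not independent of the difference between the lines, and no test was made of these correlations.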

How the data were processed

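RNA of 8 cultures was made into QuantSeq 3′ libraries, per the labels' protocols. The authors deposited raw counts per gene and library, not normalized and not pooled. STAR, featureCounts and build mm10 are named in the submitters' processing notes, and the column names are STAR alignment names, per the file headers. The file's own name states counting on the forward strand. Versions, annotation and filters are not given in the sources used here. Labels call the samples biological replicates.

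Of 55487 identifiers, 55227 were given a symbol from GENCODE M21 (GRCm38), 54435 of them with the identical version. Genes with low counts were removed with filterByExpr at its defaults, and 13280 remained. Libraries were scaled by TMM. The lines were compared with edgeR 4.0.16 (glmQLFit and glmQLFTest, R 4.3.3), two-sided, with Benjamini-Hochberg adjustment over all 13280 genes at 0.05. The SE is the size of the log2 fold change divided by the square root of F. The fit was tested on simulated data. Log2 CPM used a prior count of 2.

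Groups and replicate numbers came from the sample titles. The members and lists were chosen with earlier results of these data known. Genes named are all members, Tbx1, the called genes of each pathway list or else the 2 most abundant ones, and the 5 genes most correlated with Prtg; 1 of the abundant genes is not reported here. Others (Gata6, Hand1, Hand2, Mesp1, Olig2, Msgn1, Cdx2, T, Ncam1, Id1, Acvr2b, Fyn, Unc5a, Ntn5, Nedd4, Gm27203 and A730062M13Rik) were named after their values were seen. Isl1, Bmp7, Id3, Bmpr1b, Bmpr2 and Acvr1 were also named in that way. The marker lists held cardiac, paraxial, neural, neural crest, endothelial and pluripotency genes, of which 1 of 14 tested, 1 of 10, 0 of 8, 0 of 5, 0 of 10 and 0 of 6 were called by edgeR (9, 3, 1, 0, 1 and 1 had an unadjusted p under 0.05). DESeq2 called 4, 1, 0, 0, 1 and 0, and limma-voom 4, 1, 0, 0, 0 and 0. Over all 13280 tested genes, edgeR called 188, DESeq2 405 and limma-voom 252, and 1584 had an unadjusted p under 0.05 in edgeR. Chi-square per degree of freedom between libraries of a line was 7.04 to 24.2, so no library was a copy. Alternatives were RLE size factors, library size alone, no filter, DESeq2 1.42.0, a minimum mean of 10 counts, limma-voom (limma 3.58.1), a replicate block and leaving out each library.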

Additional observations from a re-analysis of the deposited data

Results flagged for a closer look

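Unc5c was at 191 CPM in mutant library 4, against 142 to 147 CPM in the other mutant libraries, and was picked out because the gap to its nearest neighbour was 0.901 of the whole range of the group, above Dixon's critical value for 4 samples. Of 66 groups examined in this way 1 stood out, where chance gives about 1 in 20. Mutant library 4 also had the fewest genes detected.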

How the results depend on the processing

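Prtg was the called member in all 15 alternative settings, with a log2 fold change of -1.32 to -1.05 and an adjusted p of at most 0.00137. The number of genes called over the whole table, 188, became 439 with no filter on low counts and 405 with DESeq2, and was 103 to 235 when single libraries were left out; it fell most without parental library 2 (103), parental library 3 (104) and mutant library 3 (116). Library size alone gave 157 genes, 63.7% of them higher, against 52.7% with TMM. Of the pathway genes, 2 were called, 5 with no filter (Acvr2b, Fyn and Id1 added), 4 with DESeq2 (Acvr2b and Fyn added) and 1 to 3 when single libraries were left out. The difference in total counts was -991233 to -333862 when single libraries were left out. When single libraries were left out, log2 fold changes were -0.083 to 0.021 for Mbtps1 and -0.13 to 0.48 for Rgmb, with the sign turned without mutant library 4 and 2, respectively. The cause of these shifts was not tested. Same-numbered libraries had deviations correlated at -0.03 to 0.10, so the numbers were not taken to pair them; a replicate block gave 234 genes, 172 shared with the 188, 1 member (Prtg, -1.18) and 3 pathway genes. Depth limits Dcc and Ntn1, with at most 20 and 50 counts per library.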
